A study of Mus musculus with 16 samples.

Results

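Glycolysis splits glucose into pyruvate in the cytosol, pyruvate dehydrogenase turns pyruvate into acetyl-CoA in the mitochondrion, and the tricarboxylic acid (TCA) cycle oxidizes acetyl-CoA and hands the electrons to the respiratory chain. The adult heart draws most of its ATP from mitochondrial oxidation of fatty acids, lactate and glucose, and pressure overload is known for a move of cardiac metabolism from fatty acid oxidation toward glucose use. Several steps have a muscle isoform and a more widely expressed isoform, so the mix of isoforms is read beside the level of each step. The 49 genes described here were taken by name from the gene count matrix: 2 glucose transporters, 15 glycolytic enzymes, 2 enzymes that set fructose 2,6-bisphosphate, 3 genes of lactate metabolism, 2 of glycogen, 3 pyruvate dehydrogenase subunits, 5 kinases and phosphatases of that complex, and 17 TCA cycle genes. All 49 were found among the 55573 genes of the matrix, and all 49 were among the 16857 genes that passed the filter on low counts.

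The counts came from the apex of mouse hearts, as poly A-selected libraries read from a single end for 50 bases. Wild-type mice had received AAV9-cTNT-GFP or AAV9-cTNT-CARDINAL by subcutaneous injection at postnatal day 1, the cTNT promoter driving expression in cardiomyocytes, and later had sham surgery or transverse aortic constriction (TAC), a ligature on the aorta that makes the left ventricle pump against raised pressure. The hearts were collected at 4 weeks, and each of the 4 groups (GFP sham, GFP TAC, Cardinal sham and Cardinal TAC) held 4 mice, all male per the study's methods. Cardinal is a cardiac long noncoding RNA whose mouse gene is Gm12295, so all 16 mice also carried their own copy of it. Totals were 16441997 to 21904589 counts per mouse, at which 3 counts correspond to 0.126 to 0.195 CPM (the count of a gene relative to the TMM-scaled total of its library), a floor that covers counting error only. Mitochondrially encoded genes held 30.3 to 34.0% of the counts. Skeletal muscle and adipocyte markers were near 0 in every group, at 1.67 and 1.81 summed CPM or less per mouse, and ventricular cardiomyocyte markers were abundant. The row of Cardinal itself (Gm12295) averaged 4.77 and 4.88 CPM in GFP sham and GFP TAC and 31.0 and 38.1 CPM in Cardinal sham and Cardinal TAC hearts, with no overlap between the vectors. As checks of the surgery, Nppa, which encodes atrial natriuretic peptide and rises in the loaded ventricle, rose with both vectors (log2 fold change 3.58, adjusted p = 8.08e-05 in GFP and 1.92, adjusted p = 0.0143 in Cardinal hearts), while Myh7, the slow myosin heavy chain, did not pass the test (0.074, adjusted p = 0.458, and 0.014, adjusted p = 0.933).

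Compared per length of exon, the most abundant of these transcripts in GFP sham hearts were Aldoa (the aldolase of muscle, 494 ± 15.9 CPM per kb, SD, n = 4), Ldhb (the heart form of lactate dehydrogenase, 484 ± 18.4 CPM per kb), Mdh1 (cytosolic malate dehydrogenase, 484 ± 10.3 CPM per kb) and Idh2 (mitochondrial NADP-dependent isocitrate dehydrogenase, 479 ± 7.09 CPM per kb). These 4 levels lay within 1 SD of the neighbor in the order, so their rank was not resolved. Ogdh, a subunit of 2-oxoglutarate dehydrogenase, followed at 334 ± 16.2 CPM per kb and Eno3, the muscle enolase, at 319 ± 16.7 CPM per kb. At the bottom stood Pdk3 (0.495 ± 0.123 CPM per kb) and Slc16a3, a lactate exporter of glycolytic cells (0.344 ± 0.0993 CPM per kb), while Pfkp, a phosphofructokinase isoform, reached 3.08 ± 0.175 CPM per kb. The median coefficient of variation of a member over the mice of a group was 3.83% in GFP sham, 5.99% in GFP TAC, 4.37% in Cardinal sham and 6.35% in Cardinal TAC hearts. Pdk4, a kinase that switches pyruvate dehydrogenase off, was the most variable member in 3 groups, with 70.8% in GFP TAC, 49.4% in Cardinal sham and 69.4% in Cardinal TAC.

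After TAC in GFP hearts, the TCA cycle genes fell together, all 17 of 17, whereas the 15 glycolytic enzymes split into 3 that rose, 4 that fell and 8 that did not pass the test. Over all 49 members, 30 passed an adjusted p of 0.05 in GFP hearts (3 higher and 27 lower), against 17.4% of the 16857 genes tested (8.49% higher and 8.92% lower). The median log2 fold change of the members was -0.22, beside 0.005 over all genes tested. In Cardinal hearts 8 of 49 members passed the test after TAC (2 higher and 6 lower), against 6.48% of the genes tested (3.1% higher and 3.38% lower), with a median of -0.043 beside -0.0005. Averaged over both vectors, the TAC effect was called in 31 members (6 higher and 25 lower), against 23.1% of the genes tested (11.3% higher and 11.8% lower). Sets of mice without overlap between TAC and sham were seen for 31 members in GFP hearts (3 higher and 28 lower, against 20.3% of the genes tested, 10.1% higher and 10.2% lower) and for 16 in Cardinal hearts (4 higher and 12 lower, against 13.7%, 6.51% higher and 7.21% lower).

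**Figure D1:**
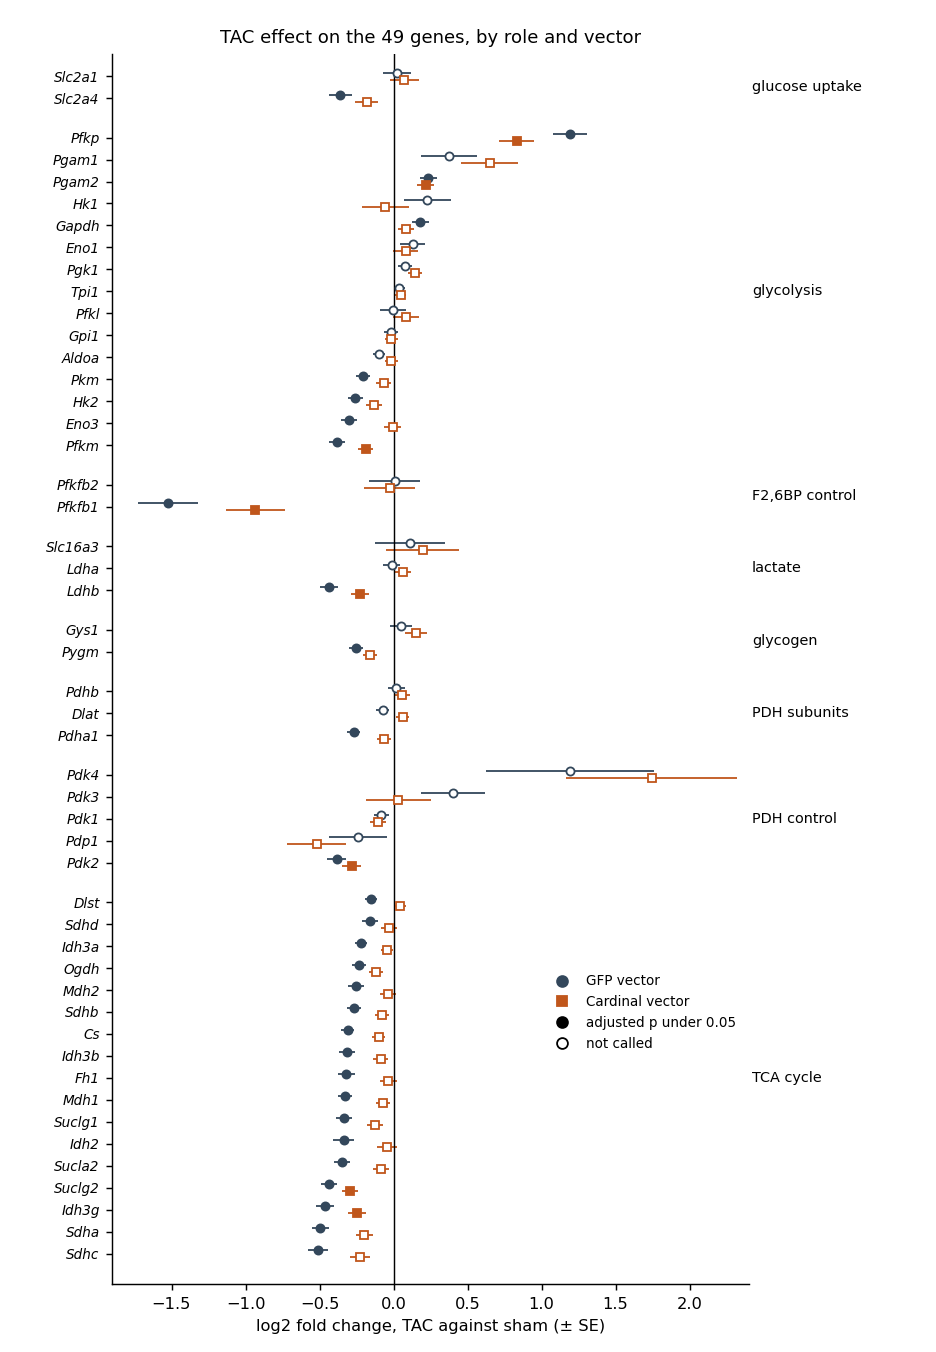
Log2 fold change of TAC against sham (± SE of the edgeR fit) for each of the 49 genes, grouped by role; circles are GFP hearts, squares Cardinal hearts, and filled symbols passed an adjusted p of 0.05. F2,6BP stands for fructose 2,6-bisphosphate and PDH for pyruvate dehydrogenase. The 17 TCA cycle genes of GFP hearts all lie left of 0, between -0.51 and -0.15, and the largest changes of the plot are those of Pfkp, Pfkfb1 and Pdk4.

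Marker transcripts of several cell types moved with TAC, and their part in the changes of the enzymes was not tested. The 8 cardiomyocyte markers together were at 46317 ± 1616 CPM (SD, n = 4) in GFP sham and 39891 ± 3226 CPM in GFP TAC hearts, with 5 of 8 called lower (Myh6, Tnnt2, Tnni3, Ryr2 and Myl2). In Cardinal hearts they were at 45859 ± 2402 CPM after sham surgery and 45558 ± 2444 CPM after TAC, with 0 of 8 called. Fibroblast markers summed to 551 ± 28.7 CPM in GFP sham, 989.8 ± 121 CPM in GFP TAC (5 of 8 called higher, among them Col1a1 and Postn), 522 ± 27.8 CPM in Cardinal sham and 666 ± 217 CPM in Cardinal TAC hearts (1 of 8 called higher, Postn). Endothelial markers summed to 497 ± 43.9 CPM in GFP sham and 592 ± 50.8 CPM in GFP TAC hearts (2 of 6 called higher), and to 497 ± 11.1 and 564 ± 49.6 CPM in the Cardinal groups (0 of 6). Smooth muscle and pericyte markers were at 568 ± 24.2 and 590.4 ± 12.6 CPM with GFP (2 of 5 called higher) and at 544 ± 11.7 and 558 ± 25.9 CPM with Cardinal (0 of 5), and macrophage markers at 118 ± 6.61 and 136 ± 8.64 CPM with GFP (1 of 7 called higher) and at 114 ± 5.77 and 118 ± 14.2 CPM with Cardinal (0 of 7). The Cardinal TAC mouse numbered 1 stood apart from the other 3 of its group, with 990.4 CPM of fibroblast markers against 530 to 573 CPM, and values without it are given for the TCA cycle, for the comparisons of the vectors and for members whose Cardinal call it changed. In bulk RNA, fewer cells of a type and less RNA per cell cannot be told apart.

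Glucose enters the cardiomyocyte through Slc2a4 (GLUT4), the transporter that insulin brings to the membrane, and Slc2a1 (GLUT1), which is present without insulin. In GFP hearts, Slc2a4 measured 292, 278, 269.5 and 284 CPM after sham surgery and 253, 181, 229 and 213 CPM after TAC. With Cardinal, Slc2a4 measured 277, 303, 264 and 282 CPM after sham surgery and 244, 268, 233 and 246 CPM after TAC. Every GFP TAC mouse lay below every GFP sham mouse, and Slc2a4 fell (log2 fold change -0.36, SE 0.08, adjusted p = 0.00621), while the Cardinal groups overlapped and the change did not pass the test (-0.18, SE 0.08, adjusted p = 0.196). In GFP hearts, Slc2a1 measured 13.8, 11.3, 10.2 and 12.7 CPM after sham surgery and 11.9, 12.9, 12.5 and 11.5 CPM after TAC, and with Cardinal 11.3, 12.1, 10.2 and 11.7 CPM after sham surgery and 13.1, 10.1, 12.2 and 12.2 CPM after TAC. All groups overlapped for Slc2a1, with log2 fold changes of 0.023 and 0.072 (adjusted p = 0.913 and 0.741).

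Hexokinase traps glucose in the cell as glucose 6-phosphate, Hk2 being the insulin-responsive muscle form and Hk1 the form of most tissues. In GFP hearts, Hk2 measured 257, 253, 237 and 258 CPM after sham surgery and 223, 209.5, 211 and 197 CPM after TAC. With Cardinal, Hk2 measured 229, 257, 245 and 254 CPM after sham surgery and 214, 231, 218 and 237 CPM after TAC. Hk2 fell in GFP hearts without overlap (-0.26, SE 0.052, adjusted p = 0.00308), and in Cardinal hearts the groups overlapped (-0.13, SE 0.052, adjusted p = 0.146). In GFP hearts, Hk1 measured 138, 103, 91.3 and 111 CPM after sham surgery and 147, 150.0, 110.0 and 111 CPM after TAC, and with Cardinal 116, 119, 107 and 108 CPM after sham surgery and 148, 94.8, 88.8 and 101 CPM after TAC. Hk1 scattered within groups, its highest Cardinal TAC value belonging to mouse 1, and passed the test with neither vector (0.23, adjusted p = 0.379, and -0.055, adjusted p = 0.898).

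Phosphofructokinase commits sugar to glycolysis, with a muscle (Pfkm), a liver (Pfkl) and a platelet (Pfkp) isoform, and the muscle and platelet isoforms moved in opposite directions. In GFP hearts, Pfkm measured 643, 671, 637 and 662 CPM after sham surgery and 523, 469, 513 and 499 CPM after TAC. With Cardinal, Pfkm measured 627, 661, 625 and 702 CPM after sham surgery and 524, 606, 568 and 596 CPM after TAC. Pfkm fell with both vectors and without overlap (GFP -0.38, SE 0.053, adjusted p = 0.00021, and Cardinal -0.19, SE 0.053, adjusted p = 0.0465), though the Cardinal call was lost in 17 of 27 alternative analyses, with -0.15 and adjusted p = 0.0895 without Cardinal TAC mouse 1. In GFP hearts, Pfkp measured 40.2, 39.1, 41.2 and 44.6 CPM after sham surgery and 90.0, 114, 79.9 and 93.4 CPM after TAC. With Cardinal, Pfkp measured 37.9, 40.7, 35.6 and 46.0 CPM after sham surgery and 62.2, 62.9, 76.7 and 82.7 CPM after TAC. Pfkp rose with both vectors, every TAC mouse lying above every sham mouse (GFP 1.19, SE 0.12, adjusted p = 1.6e-05, and Cardinal 0.83, SE 0.12, adjusted p = 0.00142). Pfkp shares 5.10% of its exonic 50-base stretches with Pitrm1. In GFP hearts, Pfkl measured 82.4, 66.6, 66.6 and 85.1 CPM after sham surgery and 75.7, 79.6, 68.1 and 76.4 CPM after TAC, and with Cardinal 70.6, 66.1, 73.1 and 73.2 CPM after sham surgery and 68.7, 73.7, 73.4 and 84.2 CPM after TAC. Pfkl overlapped throughout, with log2 fold changes of -0.004 and 0.084. As a share of the 3 isoforms per kb of exon, Pfkp went from 1.47 ± 0.0808% to 4.21 ± 0.784% in GFP hearts and from 1.42 ± 0.0854% to 2.82 ± 0.347% in Cardinal hearts (SD, n = 4), with no overlap between sham and TAC. Pfkm held 93.2 ± 0.726% before and 89.1 ± 1.37% after TAC in GFP hearts and 93.5 ± 0.285% and 91.2 ± 0.639% in Cardinal hearts, so it stayed the main isoform in each of the 4 groups.

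The sequences upstream of these 2 isoforms, which moved in opposite directions, are shown as the 250 bases before an annotated start site (RefSeq, GRCm38.p6, read 5′ to 3′ on the gene's strand). Capitals in the Pfkm sequence, the first of its 4 annotated starts, mark CACGTG, an E-box, which also holds ACGTG on either strand. The Pfkp sequence holds none of the motifs searched and has 6 bases of annotated exon.
Pfkm, chr15:98092339-98092588, plus strand: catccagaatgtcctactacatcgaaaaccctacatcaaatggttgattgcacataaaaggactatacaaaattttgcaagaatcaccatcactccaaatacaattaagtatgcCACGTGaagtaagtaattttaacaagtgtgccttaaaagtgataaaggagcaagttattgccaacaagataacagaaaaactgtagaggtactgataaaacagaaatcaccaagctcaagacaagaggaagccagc
Pfkp, chr13:6648772-6649021, minus strand: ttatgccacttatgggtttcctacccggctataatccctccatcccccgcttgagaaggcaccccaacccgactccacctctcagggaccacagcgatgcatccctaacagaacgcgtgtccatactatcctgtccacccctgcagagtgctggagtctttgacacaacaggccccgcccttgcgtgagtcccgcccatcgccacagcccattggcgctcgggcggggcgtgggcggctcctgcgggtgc

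**Figure D2:**
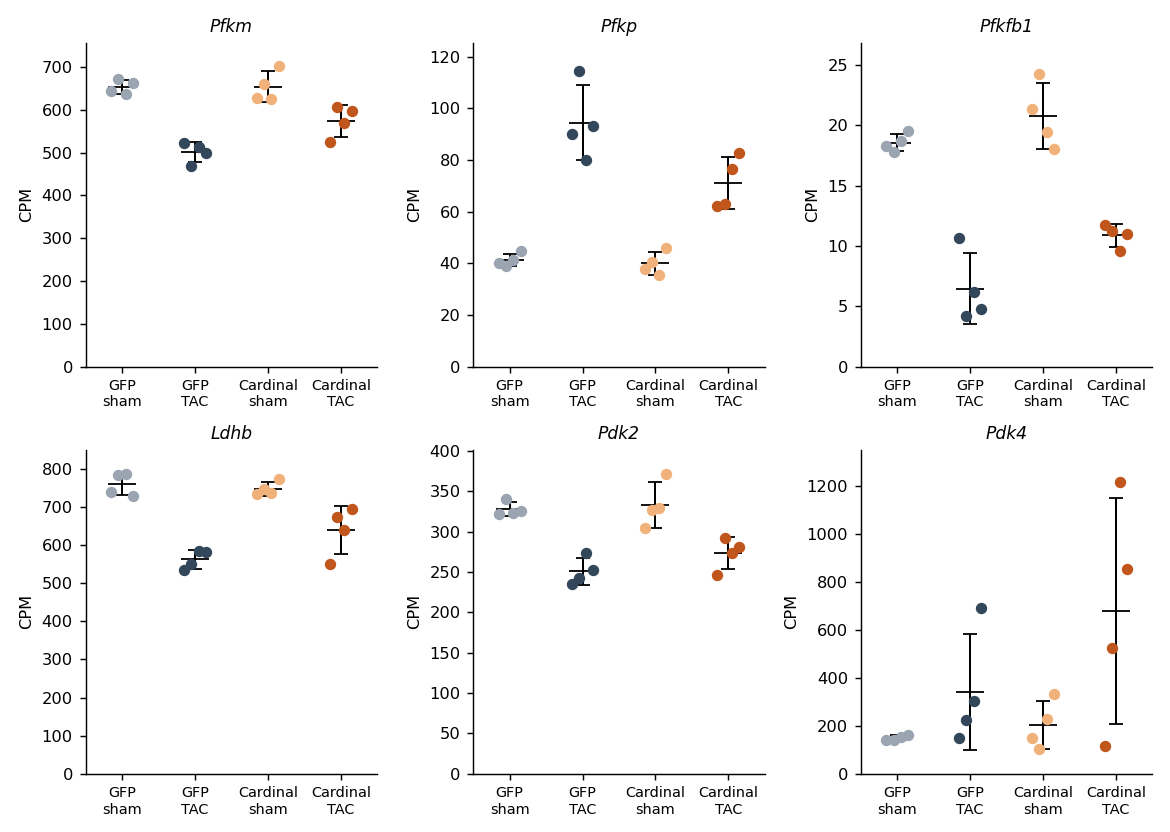
CPM in each mouse (points) with the mean and SD (bars, n = 4) of the 4 groups, on linear axes from 0, for 3 phosphofructokinase step genes (Pfkm, Pfkp and Pfkfb1), Ldhb, Pdk2 and Pdk4. Pfkp is higher and Pfkm, Pfkfb1, Ldhb and Pdk2 are lower in all TAC mice than in the sham mice with the same vector, while Pdk4 spreads from 115 to 1220 CPM among the Cardinal TAC mice.

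Fructose 2,6-bisphosphate is the strongest activator of phosphofructokinase, and the bifunctional enzymes Pfkfb1 and Pfkfb2 make and break it. In GFP hearts, Pfkfb1 measured 18.3, 17.8, 18.7 and 19.5 CPM after sham surgery and 10.7, 4.20, 6.17 and 4.78 CPM after TAC. With Cardinal, Pfkfb1 measured 21.3, 24.3, 19.5 and 18.04 CPM after sham surgery and 11.8, 11.3, 9.55 and 11.0 CPM after TAC. Pfkfb1 showed the largest fall of the 49 genes, without overlap in either vector (GFP -1.52, SE 0.21, adjusted p = 0.000176, and Cardinal -0.93, SE 0.20, adjusted p = 0.0139), at a level that was low throughout. In GFP hearts, Pfkfb2, the heart isoform, measured 74.2, 75.6, 66.0 and 59.2 CPM after sham surgery and 54.0, 66.9, 98.7 and 57.0 CPM after TAC, and with Cardinal 57.7, 61.7, 71.0 and 79.2 CPM after sham surgery and 66.5, 81.8, 58.9 and 57.3 CPM after TAC. Pfkfb2 overlapped in both vectors (0.008 and -0.025).

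Of the middle steps of glycolysis, none of Gpi1, Aldoa and Tpi1 passed the test with either vector. Gpi1, which isomerizes glucose 6-phosphate, had log2 fold changes of -0.018 in GFP and -0.015 in Cardinal hearts, and triosephosphate isomerase, Tpi1, had 0.04 and 0.047. Aldoa was lower without overlap in GFP TAC mice but not called, at 1437 ± 46.3 CPM (SD, n = 4) in GFP sham and 1343 ± 40.5 CPM in GFP TAC hearts and at 1357 ± 68.5 and 1344 ± 46.7 CPM in the Cardinal groups. Gapdh, often taken as a constant reference gene, went from 154 ± 10.3 to 175 ± 8.27 CPM in GFP hearts (0.18, SE 0.055, adjusted p = 0.0317) and from 151 ± 3.47 to 161 ± 9.65 CPM in Cardinal hearts (0.087, SE 0.055, adjusted p = 0.389). However, 86 near-identical copies of Gapdh held 84.0% of the counts of the family, and with them added Gapdh was not called in GFP hearts (0.11, SE 0.059, adjusted p = 0.215), so its rise is uncertain. Pgk1, phosphoglycerate kinase, passed the test only in the average over both vectors (0.11, SE 0.033, adjusted p = 0.0266), with 39.5% of the family's counts in 4 copies, and it kept that call when they were added (adjusted p = 0.021).

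Phosphoglycerate mutase moves the phosphate of 3-phosphoglycerate, with Pgam2 the muscle form and Pgam1 the form of brain and other tissues. In GFP hearts, Pgam2 measured 229, 247, 253 and 236 CPM after sham surgery and 257, 293, 306 and 281 CPM after TAC. With Cardinal, Pgam2 measured 239, 239, 248.6 and 239 CPM after sham surgery and 263, 289, 269 and 301 CPM after TAC. Pgam2 rose with both vectors and without overlap (GFP 0.24, SE 0.057, adjusted p = 0.00997, and Cardinal 0.22, SE 0.057, adjusted p = 0.0361), the Cardinal call being lost in 9 of 27 alternatives. In GFP hearts, Pgam1 measured 18.5, 20.99, 25.4 and 26.6 CPM after sham surgery and 20.7, 33.1, 30.1 and 34.7 CPM after TAC, and with Cardinal 16.3, 16.03, 22.6 and 21.3 CPM after sham surgery and 23.1, 26.4, 29.8 and 40.3 CPM after TAC. Pgam1 did not overlap in Cardinal hearts, but with all 16 mice passed the test only in the average (0.51, SE 0.14, adjusted p = 0.0123). It was called in Cardinal hearts without Cardinal TAC mouse 1 (0.76, adjusted p = 0.0301), the lowest of its group, so the larger rise follows from that choice. Of the counts of Pgam1 and its 2 copies, 27.97% were in the copies.

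Enolase makes phosphoenolpyruvate, with Eno3 in muscle and Eno1 in most tissues. In GFP hearts, Eno3 measured 517, 553, 558 and 588 CPM after sham surgery and 457, 397, 482 and 464 CPM after TAC. With Cardinal, Eno3 measured 551, 553, 531 and 557 CPM after sham surgery and 532, 560.8, 527 and 562 CPM after TAC. Eno3 fell in GFP hearts without overlap (-0.30, SE 0.055, adjusted p = 0.00181), whereas in Cardinal hearts the TAC and sham mice lay in the same range (-0.006, SE 0.055, adjusted p = 0.974). In GFP hearts, Eno1 measured 48.5, 51.3, 47.3 and 52.7 CPM after sham surgery and 52.7, 62.7, 51.5 and 51.8 CPM after TAC, and with Cardinal 49.3, 48.6, 49.3 and 47.1 CPM after sham surgery and 59.3, 45.1, 46.3 and 55.2 CPM after TAC. Eno1 overlapped in both vectors (0.13 and 0.084). Pkm, pyruvate kinase, closed the pathway at 624 ± 38.3 CPM in GFP sham and 541 ± 14.7 CPM in GFP TAC hearts, a fall (-0.21, SE 0.049, adjusted p = 0.00954), and at 604 ± 14.3 and 576 ± 33.4 CPM in Cardinal hearts (-0.067, SE 0.049, adjusted p = 0.479).

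Lactate dehydrogenase tetramers of the heart hold mainly the Ldhb subunit, which favors the oxidation of lactate to pyruvate, and Ldha predominates in glycolytic muscle. In GFP hearts, Ldhb measured 740.4, 784, 786 and 730.1 CPM after sham surgery and 534, 550.4, 584 and 582 CPM after TAC. With Cardinal, Ldhb measured 733, 748, 736 and 772 CPM after sham surgery and 550.5, 674, 641 and 694 CPM after TAC. Ldhb fell with both vectors without overlap (GFP -0.43, SE 0.061, adjusted p = 0.000225, and Cardinal -0.22, SE 0.061, adjusted p = 0.0412), and the Cardinal call was lost in 15 of 27 alternatives, with -0.16 and adjusted p = 0.0526 without Cardinal TAC mouse 1. In GFP hearts, Ldha measured 283, 251, 269 and 286 CPM after sham surgery and 295, 272, 257 and 257 CPM after TAC, and with Cardinal 260.5, 269, 261 and 236 CPM after sham surgery and 268, 269, 265 and 269 CPM after TAC. Ldha overlapped in both vectors (-0.013 and 0.061, adjusted p = 0.915 and 0.583). Slc16a3 (MCT4), which exports lactate, was scarce. In GFP hearts, Slc16a3 measured 1.28, 1.73, 2.55 and 1.76 CPM after sham surgery and 1.71, 2.43, 1.66 and 2.09 CPM after TAC, and with Cardinal 1.04, 1.255, 2.02 and 1.75 CPM after sham surgery and 1.77, 2.16, 1.77 and 1.197 CPM after TAC, with overlap in both vectors.

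Glycogen is built by glycogen synthase (Gys1 in muscle) and broken down by phosphorylase (Pygm in muscle). In GFP hearts, Pygm measured 817, 835, 799 and 823 CPM after sham surgery and 682, 690.2, 696 and 675 CPM after TAC. With Cardinal, Pygm measured 787, 821, 793 and 881 CPM after sham surgery and 698, 779, 696 and 768 CPM after TAC. Pygm fell in GFP hearts (-0.26, SE 0.046, adjusted p = 0.00157), and in Cardinal hearts it did not overlap but missed the threshold (-0.16, SE 0.046, adjusted p = 0.0549). In GFP hearts, Gys1 measured 108, 99.9, 95.2 and 109.8 CPM after sham surgery and 115, 95.5, 120.4 and 97.1 CPM after TAC, and with Cardinal 99.4, 102, 102 and 114 CPM after sham surgery and 112, 118, 114 and 119.9 CPM after TAC. Gys1 overlapped in both vectors (0.049 and 0.15).

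The pyruvate dehydrogenase complex is the gate between glycolysis and the TCA cycle, and of its 3 listed subunits Pdha1, the E1 alpha subunit that the kinases phosphorylate, passed the test after TAC. In GFP hearts, Pdha1 measured 919, 914, 984 and 903 CPM after sham surgery and 778, 716, 807 and 784 CPM after TAC. With Cardinal, Pdha1 measured 863, 906, 954 and 948 CPM after sham surgery and 844, 892, 907 and 869 CPM after TAC. Pdha1 fell without overlap in GFP hearts (-0.27, SE 0.047, adjusted p = 0.00117) and overlapped in Cardinal hearts (-0.064, SE 0.047, adjusted p = 0.478), and 12.5% of its 50-base stretches are shared with Map3k15. In GFP hearts, Pdhb, the E1 beta subunit, measured 381, 377, 372 and 395 CPM after sham surgery and 361, 376, 432 and 376 CPM after TAC, and with Cardinal 362, 392, 373 and 384 CPM after sham surgery and 362, 415, 404 and 392 CPM after TAC. In GFP hearts, Dlat, the E2 core, measured 326, 325, 329.6 and 339.7 CPM after sham surgery and 304, 298, 338 and 313 CPM after TAC, and with Cardinal 330.5, 339, 353 and 320.4 CPM after sham surgery and 339.7, 359, 346 and 356 CPM after TAC. Both overlapped between sham and TAC in either vector, with log2 fold changes of 0.019 and 0.057 for Pdhb and -0.075 and 0.061 for Dlat.

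The 4 pyruvate dehydrogenase kinases inactivate the complex, Pdk2 being the constitutive form of most tissues and Pdk4 the form that fasting and fatty acids raise in heart and muscle. In GFP hearts, Pdk2 measured 322, 341, 324 and 326 CPM after sham surgery and 235, 243, 274 and 252 CPM after TAC. With Cardinal, Pdk2 measured 304, 327, 329 and 372 CPM after sham surgery and 246, 293, 274 and 281 CPM after TAC. Pdk2 fell with both vectors without overlap (GFP -0.38, SE 0.066, adjusted p = 0.00106, and Cardinal -0.28, SE 0.066, adjusted p = 0.0215). In GFP hearts, Pdk4 measured 141, 142, 153 and 164 CPM after sham surgery and 148, 224, 303 and 693 CPM after TAC. With Cardinal, Pdk4 measured 148, 104, 228 and 332 CPM after sham surgery and 115, 526, 1219.8 and 855 CPM after TAC. Pdk4 spread widely after TAC, so that the TAC and sham mice overlapped with both vectors and neither change passed the test (GFP 1.19, SE 0.57, adjusted p = 0.176, and Cardinal 1.74, SE 0.58, adjusted p = 0.0869). The average over both vectors was called (1.47, SE 0.40, adjusted p = 0.0159). Without Cardinal TAC mouse 1, the lowest of its group, the Cardinal change was called (adjusted p = 0.0152). A larger change follows from leaving out the lowest TAC value, so that call is no separate evidence of a rise. By exact permutation of 4 mice against 4, where 70 labelings give a smallest two-sided p of 0.0286, Pdk4 had p = 0.0857 in GFP and 0.143 in Cardinal hearts.

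Pdk1 and Pdk3 did not pass the test. In GFP hearts, Pdk1 measured 136, 115, 119 and 119 CPM after sham surgery and 115, 117, 109 and 121 CPM after TAC, and with Cardinal 125, 118, 128 and 119 CPM after sham surgery and 114, 113, 116 and 112 CPM after TAC. Pdk1 did not overlap in Cardinal hearts, at a log2 fold change of -0.10 (adjusted p = 0.263), and overlapped in GFP hearts. In GFP hearts, Pdk3 measured 1.28, 1.39, 1.57 and 0.831 CPM after sham surgery and 1.71, 1.76, 1.66 and 1.57 CPM after TAC, and with Cardinal 1.36, 1.16, 1.73 and 1.30 CPM after sham surgery and 2.08, 1.27, 1.30 and 1.01 CPM after TAC, with overlap in both vectors. As a share of the 4 kinases per kb, Pdk4 went from 26.3 ± 1.64% to 46.5% in GFP hearts, where TAC mice ranged from 31.99 to 67.3%, and from 30.9 ± 9.37% to 57.9 ± 22.7% in Cardinal hearts (SD, n = 4), with the range of the Cardinal TAC mice from 25.9 to 77.3%. The phosphatase subunit Pdp1, which reactivates the complex, measured 28.8, 26.5, 27.2 and 19.9 CPM after sham surgery and 29.4, 22.4, 18.2 and 16.6 CPM after TAC in GFP hearts, and with Cardinal 31.6, 31.1, 24.7 and 23.4 CPM after sham surgery and 27.3, 17.2, 15.4 and 17.4 CPM after TAC. Pdp1 was not called (-0.24, adjusted p = 0.462, and -0.52, adjusted p = 0.136), its highest Cardinal TAC value being that of mouse 1. Without that mouse the Cardinal change was -0.73 (adjusted p = 0.0252), a larger fall that follows from leaving out the highest TAC value.

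In the TCA cycle, every one of the 17 genes fell after TAC in GFP hearts, with no overlap between TAC and sham mice for any of them, against 8.92% of all genes tested called lower and 10.2% lower without overlap. Their log2 fold changes ran from -0.51 (Sdhc) to -0.15 (Dlst) around a median of -0.32. In Cardinal hearts 16 of the 17 values were negative. Of the 17, 2 were called lower, Suclg2 and Idh3g, and 6 were lower without overlap, against 3.38% and 7.21% of the genes tested. The 17 changes ran from -0.30 to 0.044 with a median of -0.082. Without Cardinal TAC mouse 1, the same 2 genes were called, and the changes ran from -0.25 to 0.063 with a median of -0.037. The call of Sdhd in GFP hearts was the least stable, being lost in 19 of 27 alternatives, and that of Dlst was lost in 3.

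Sdha and Sdhc belong to succinate dehydrogenase, which is at once a TCA cycle enzyme and complex II of the respiratory chain, Sdha carrying the flavin and Sdhc anchoring the enzyme in the membrane. In GFP hearts, Sdha measured 1105, 1112, 1112 and 1093 CPM after sham surgery and 794, 699.7, 813 and 831 CPM after TAC. With Cardinal, Sdha measured 1046, 1069, 1079 and 1141 CPM after sham surgery and 843, 986, 993 and 955 CPM after TAC. No TAC mouse reached a sham mouse with the same vector, with a fall in GFP hearts (-0.50, SE 0.058, adjusted p = 6.07e-05) and a value just short of the threshold in Cardinal hearts (-0.20, SE 0.058, adjusted p = 0.0534). In GFP hearts, Sdhc measured 290.1, 291, 282 and 295 CPM after sham surgery and 199.9, 200.05, 208 and 205 CPM after TAC. With Cardinal, Sdhc measured 262, 275, 266 and 300.1 CPM after sham surgery and 198, 259, 236 and 251 CPM after TAC. Sdhc gave the same picture (GFP -0.51, SE 0.068, adjusted p = 0.000153, and Cardinal -0.22, SE 0.068, adjusted p = 0.0611). Without Cardinal TAC mouse 1, the Cardinal changes were -0.15 for Sdha (adjusted p = 0.101) and -0.15 for Sdhc (adjusted p = 0.0841). The other 2 subunits fell less, with -0.27 for the iron-sulfur subunit Sdhb and -0.16 for the anchor Sdhd in GFP hearts, and -0.078 and -0.032, not called, in Cardinal hearts.

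Suclg2 is the GTP-forming beta subunit of succinyl-CoA ligase, and Idh3g a regulatory subunit of the NAD-dependent isocitrate dehydrogenase. In GFP hearts, Suclg2 measured 135, 126, 128 and 131 CPM after sham surgery and 95.8, 94.5, 97.2 and 96.4 CPM after TAC. With Cardinal, Suclg2 measured 122, 129, 133 and 135 CPM after sham surgery and 95.5, 115, 112 and 100.2 CPM after TAC. Suclg2 fell with both vectors without overlap (GFP -0.44, SE 0.054, adjusted p = 9.07e-05, and Cardinal -0.30, SE 0.054, adjusted p = 0.00646), and adding the counts of its 1 near-identical copy, 15.1% of the sum, left both calls. In GFP hearts, Idh3g measured 336, 359.6, 351 and 343 CPM after sham surgery and 262, 242, 256 and 246 CPM after TAC. With Cardinal, Idh3g measured 305, 333, 324 and 356 CPM after sham surgery and 242, 291, 286 and 291 CPM after TAC. Idh3g fell with both vectors without overlap (GFP -0.46, SE 0.061, adjusted p = 0.000141, and Cardinal -0.25, SE 0.061, adjusted p = 0.0273). The ATP-forming beta subunit Sucla2 and the shared alpha subunit Suclg1 were at -0.35 and -0.34 in GFP hearts and at -0.082 and -0.13, not called, in Cardinal hearts.

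Among the remaining TCA cycle genes, Cs, citrate synthase, which brings acetyl-CoA into the cycle, went from 1182 ± 26.0 to 953 ± 33.2 CPM (SD, n = 4) in GFP hearts (-0.31, SE 0.042, adjusted p = 0.000197) and from 1177 ± 21.3 to 1097 ± 61.8 CPM in Cardinal hearts (-0.10, SE 0.042, adjusted p = 0.175). In GFP hearts the isocitrate dehydrogenases Idh2, Idh3a and Idh3b fell by 0.34, 0.22 and 0.31 on the log2 scale. Ogdh and Dlst, the E1 and E2 subunits of 2-oxoglutarate dehydrogenase, fell by 0.23 and 0.15 on that scale. Fh1 (fumarase), Mdh1 and Mdh2 (cytosolic and mitochondrial malate dehydrogenase) fell by 0.32, 0.33 and 0.25. In Cardinal hearts these 8 genes ran from -0.12 (Ogdh) to 0.044 (Dlst) and none was called. Dlst was the single TCA cycle gene with a positive value there, and without Cardinal TAC mouse 1 the values of Idh2 (0.031), Fh1 (0.023) and Mdh2 (0.014) were positive too, none of them called.

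Promoter sequences of 3 TCA cycle genes that fell in GFP hearts are shown in the same way (250 bases before the annotated start, RefSeq, GRCm38.p6, no annotated exon in any of them), to place these co-moving genes beside the motifs searched below. Capitals in the Fh1 sequence mark TGACCT, the reverse complement of AGGTCA, the core of nuclear receptor sites. Those of Cs and Suclg2 hold none of the motifs.
Cs, chr10:128337477-128337726, plus strand: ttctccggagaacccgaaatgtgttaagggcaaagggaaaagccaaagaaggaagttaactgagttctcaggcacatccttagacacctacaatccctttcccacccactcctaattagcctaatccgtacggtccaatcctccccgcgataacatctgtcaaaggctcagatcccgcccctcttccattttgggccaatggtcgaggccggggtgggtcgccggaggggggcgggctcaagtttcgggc
Suclg2, chr6:95718847-95719096, minus strand: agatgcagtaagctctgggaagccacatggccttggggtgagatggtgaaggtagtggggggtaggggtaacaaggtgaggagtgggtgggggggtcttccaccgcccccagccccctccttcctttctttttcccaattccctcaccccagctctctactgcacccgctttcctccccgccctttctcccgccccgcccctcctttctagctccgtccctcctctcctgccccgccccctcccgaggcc
Fh1, chr1:175625636-175625885, minus strand: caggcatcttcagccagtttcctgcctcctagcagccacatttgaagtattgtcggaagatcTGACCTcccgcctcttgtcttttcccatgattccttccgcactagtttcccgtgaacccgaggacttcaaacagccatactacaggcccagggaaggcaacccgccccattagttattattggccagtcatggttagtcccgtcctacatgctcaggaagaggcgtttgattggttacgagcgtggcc

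Motifs were counted on both strands of the windows from 250 bases before to 50 bases after each RefSeq start, available for 45 of the 49 members (67 windows, not for Slc2a4, Pdp1, Idh3a and Sdhc). TCAAGGTCA, the estrogen-related receptor element, was in 1 of 15 TCA cycle genes (Sdhd) and 0 of 15 glycolytic genes, against 126 of 27025 genes. Its shorter core AGGTCA, which lies within it, was in 6 of 15 TCA cycle genes and 6 of 15 glycolytic genes, against 18.1% of all genes. ACGTG, the core of the hypoxia response element, was in 8 of 15 glycolytic genes and 4 of 15 TCA cycle genes, against 21.8%, and CACGTG, which contains it, in 1 of 15 of each, against 8.09%. Counted by window, the order for ACGTG differed, with 9 of 20 TCA cycle windows (45%) and 10 of 24 glycolytic windows (41.7%), against 19.6% of all windows. These counts are a description of letters in a window, and members with several windows had more chances of a match than genes with 1.

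Set side by side, the TCA cycle genes had a lower median log2 fold change from sham to TAC than the glycolytic enzymes with both vectors. The summed CPM of the 17 TCA cycle genes was 11106, 11062, 11141 and 11235 in the 4 GFP sham mice and 9073, 8364, 9236 and 9159 in the 4 GFP TAC mice. With Cardinal, it was 10544, 10881, 10735 and 11258 after sham surgery and 9206, 10485, 10362 and 10595 after TAC. The GFP TAC mice lay below all sham mice, whereas in Cardinal TAC hearts mouse 1 lay low and the other 3 near the lower sham values. The TAC mean was 80.4% of the sham mean with GFP and 93.6% with Cardinal. In Cardinal hearts the mean thus decreased by 6.38% with all 4 TAC mice and by 3.45% without mouse 1. Summed CPM of the 15 glycolytic enzymes was 4930.1, 4948, 4849 and 5203 in GFP sham and 4644, 4759.9, 4701 and 4553 in GFP TAC mice, and with Cardinal 4733, 4822, 4806 and 5043 and 4680.0, 4857, 4681 and 5051. The glycolytic sum was lower in each GFP TAC than in each GFP sham mouse, at 93.6% of the sham mean, and overlapped in Cardinal hearts, at 99.3%. These sums rest on TMM factors of 0.940 to 0.977 in GFP sham and 1.05 to 1.09 in GFP TAC mice. The factors were 0.938 to 1.02 in Cardinal sham and 0.981 to 1.04 in Cardinal TAC mice. The size of the TCA fall, and the size and direction of the glycolytic change, in GFP hearts therefore depend on this scaling. A ratio of these sums within a mouse does not. The ratio of the TCA sum to the glycolytic sum was 2.24 ± 0.0576 (SD, n = 4) in GFP sham, 1.92 ± 0.113 in GFP TAC, 2.24 ± 0.0129 in Cardinal sham and 2.11 ± 0.106 in Cardinal TAC hearts. It ranged from 1.76 to 2.01 in GFP TAC and from 1.97 to 2.21 in Cardinal TAC mice, below the lowest sham value with the same vector in each case, and it averaged 2.16 ± 0.0581 (n = 3) in Cardinal TAC hearts without mouse 1. The cardiomyocyte marker sum was 86.1% of its sham mean in GFP and 99.3% in Cardinal hearts.

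The median log2 fold change of the glycolytic enzymes was 0.04 in GFP and 0.047 in Cardinal hearts, that is 0.36 and 0.13 above the median of the TCA cycle genes. Without Cardinal TAC mouse 1, the Cardinal median of the glycolytic enzymes was 0.012. Leaving out any 1 of the 16 mice gave differences of 0.32 to 0.38 for GFP and 0.049 to 0.17 for Cardinal, the lowest Cardinal value coming without Cardinal TAC mouse 1. The 4 glycolytic genes that fell in GFP hearts were Hk2, Pfkm and Eno3, which are muscle isoforms, and Pkm. The 3 that rose were Pfkp, Pgam2, which is also a muscle isoform, and Gapdh, subject to its copies. In Cardinal hearts, Pfkp and Pgam2 were called higher and Pfkm was called lower. GC content, which can tilt count comparisons, had a median of 54.3% over the glycolytic and 49.3% over the TCA cycle genes, against 49.9% over all genes.

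**Figure D3:**
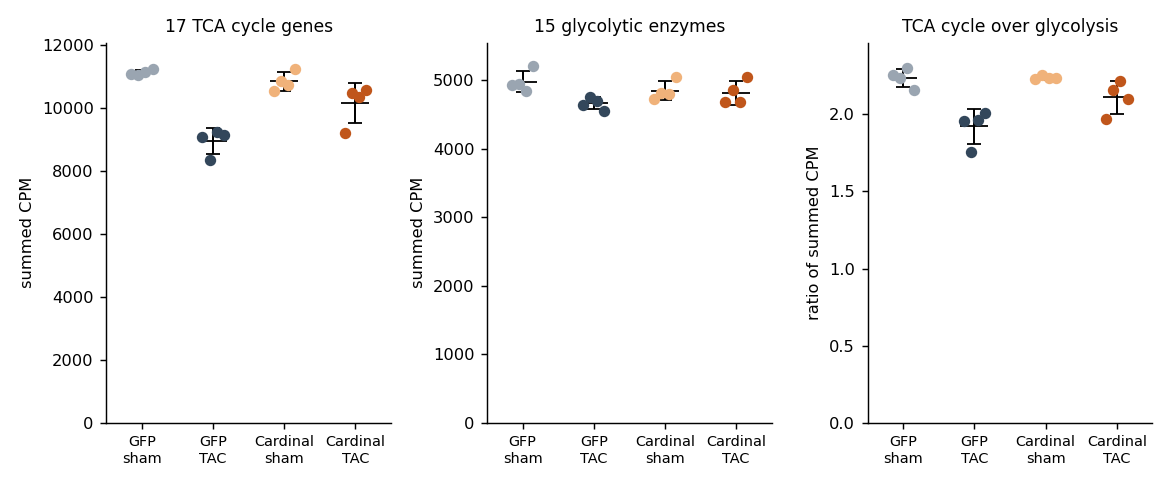
Summed CPM of the 17 TCA cycle genes and of the 15 glycolytic enzymes, and the ratio of the first sum to the second, in each mouse (points) with the mean and SD (bars, n = 4); all axes start at 0. The TCA sum of GFP TAC mice lies between 8364 and 9236 CPM, below every sham mouse, and the lowest Cardinal TAC value, 9206 CPM, is that of mouse 1.

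Whether the vector changed the levels in stressed hearts was asked by comparing Cardinal TAC with GFP TAC mice, which are the same mice as in the comparisons with sham. No member passed the edgeR test, 0 of 49, against 0.101% of the genes tested (0.0237% higher and 0.0771% lower), with an unadjusted p under 0.05 in 26 members, against 15% of the genes tested. DESeq2 called 15 of the 47 members to which it gave an adjusted p (14 higher and 1 lower in Cardinal), against 4.75% of 9010 such genes (3.23% higher and 1.52% lower). All 17 TCA cycle genes had positive values, from 0.10 to 0.27 with a median of 0.20, beside -0.007 over all genes tested. The 8 cardiomyocyte markers were all positive too, from 0.11 to 0.29 with a median of 0.22, and 0 of them were called. All 8 fibroblast markers were negative, with a median of -0.52 and 0 called. The part of these shifts in the TCA values was not tested. For 10 members every Cardinal TAC mouse lay above every GFP TAC mouse and for 0 below, against 3.58% and 3.19% of the genes tested (6.77% in either direction). They were the TCA cycle genes Cs, Idh3a, Dlst, Sucla2, Sdha and Mdh1, the glycolytic genes Pfkm and Eno3, and the pyruvate dehydrogenase subunits Pdha1 and Dlat. Eno3 had the smallest adjusted p of the glycolytic enzymes (0.28, SE 0.055, adjusted p = 0.0575) and Idh3a that of the TCA cycle genes (0.20, SE 0.04, adjusted p = 0.0574). The 15 glycolytic enzymes had 8 positive and 7 negative values and a median of 0.0007, with Pfkp the lowest (-0.41, SE 0.11, adjusted p = 0.115).

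Cardinal TAC mouse 1, which had the highest fibroblast and the lowest TCA cycle sum of its group, had the most bearing on these calls. Without it, 17 of 49 members were called higher in Cardinal TAC than in GFP TAC hearts and 0 lower, against 1.49% and 1.64% of the genes tested (3.13% in either direction), namely 13 TCA cycle genes, Pfkm, Eno3, Ldhb and Pdha1. Cs then stood at 0.24 (adjusted p = 0.00373), Sdha at 0.32 (adjusted p = 0.00671) and Eno3 at 0.29 (adjusted p = 0.0209). The 4 TCA cycle genes still not called were Ogdh, Suclg2, Sdhb and Sdhd. The TCA sum of the remaining 3 Cardinal TAC mice was 10481 ± 116 CPM, and their fibroblast marker sum was 557 ± 24.2 CPM. A low TCA cycle sum was among the traits that set this mouse apart, so higher TCA values without it follow from the choice. The calls without it are therefore no separate evidence of a difference between the vectors. Leaving out GFP TAC mouse 4 gave 5 calls, against 0.463% of the genes tested, and leaving out GFP TAC mouse 1 gave 1 (Pfkfb1), against 0.335%. Of the 16 omissions, only these 3 moved the count from 0. Leaving out GFP TAC mouse 3, which had the lowest TCA cycle sum of its group, gave 0 calls.

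**Figure D4:**
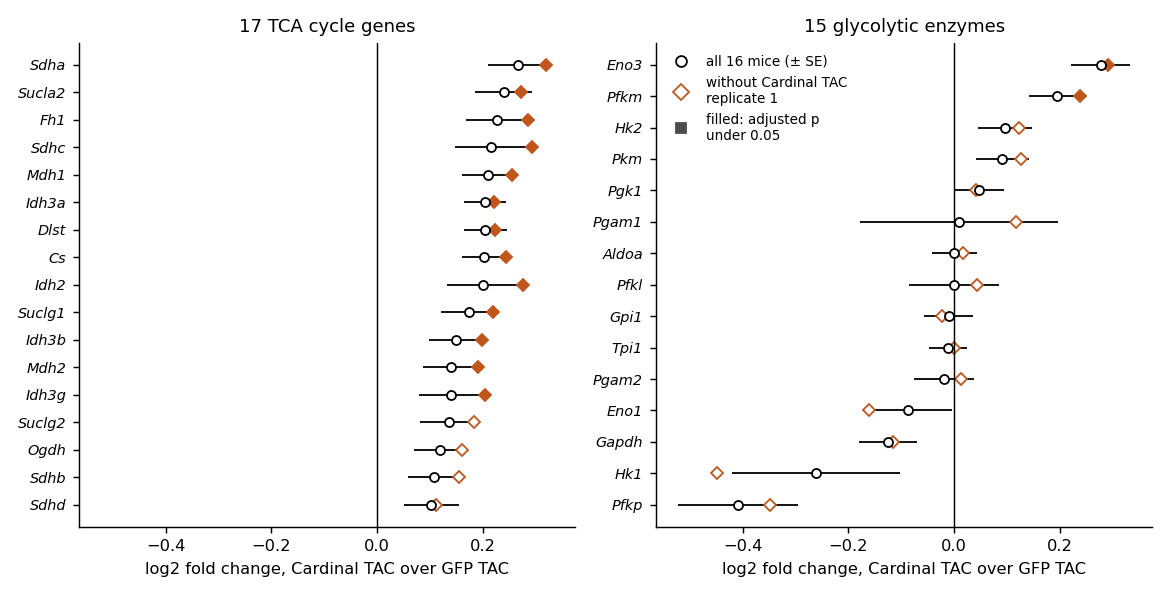
Log2 fold change of Cardinal TAC over GFP TAC for the 17 TCA cycle genes (left) and the 15 glycolytic enzymes (right); circles with bars (± SE) use all 16 mice, diamonds leave out Cardinal TAC replicate 1, and filled symbols passed an adjusted p of 0.05. All 17 TCA values are positive with either set of mice, no circle is filled, and 13 TCA diamonds and 2 glycolytic diamonds (Eno3 and Pfkm) are. The mouse left out had the lowest TCA cycle sum of its group, so the shift of the TCA diamonds follows from that choice.

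The difference between the vectors in the response to TAC itself, tested as an interaction, was called in 0 of 49 members by edgeR, against 0.0119% of the genes tested (0.00593% higher and 0.00593% lower), with an unadjusted p under 0.05 in 20 members, against 10.2% of the genes tested. DESeq2 called 10 of the 43 members to which it gave an adjusted p, against 5.53% of 2476 such genes (10 higher and 0 lower, against 4.85% and 0.687%). For all 17 TCA cycle genes the estimated TAC change was higher in Cardinal than in GFP hearts, by a median of 0.22 (0.12 to 0.30). This was a smaller fall for all but Dlst, whose Cardinal value was positive (0.044). Among the members, the smallest adjusted p was that of Sdha, Mdh1 and Eno3 (each 0.302). Sdha differed by 0.30 (SE 0.082), Mdh1 by 0.26 (SE 0.068) and Eno3 by 0.29 (SE 0.078). All 8 cardiomyocyte markers had positive differences as well, with a median of 0.23. Of the 8 fibroblast markers, 7 had negative differences and 1 a positive difference, with a median of -0.44. Without Cardinal TAC mouse 1, 6 TCA cycle genes were called (against 0.463% of the genes tested, 0.211% higher and 0.252% lower): Cs, Idh2, Sdha, Sdhc, Fh1 and Mdh1, from 0.25 to 0.37. That mouse had the lowest TCA cycle sum of its group, so here too the larger differences follow from the choice. These calls are no separate evidence of a difference in response. Pfkp differed by -0.36 (SE 0.16) and Pfkfb1 by 0.59 (SE 0.28), neither called. For members called with GFP and not with Cardinal, a difference between the vectors was therefore not shown by edgeR on all 16 mice, nor was its absence.

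In sham hearts, Cardinal against GFP gave 0 of 49 calls, against 0.0119% of the genes tested (0.00593% higher and 0.00593% lower), with an unadjusted p under 0.05 in 0 members, against 2.59% of the genes tested, and 0 calls by DESeq2, against 0.0237%. The TCA cycle genes ran from -0.092 to 0.027 (median -0.036) and the glycolytic enzymes from -0.26 to 0.021 (median -0.029). Idh2 and Idh3b were lower without overlap in Cardinal sham mice (-0.092 and -0.077, not called) and 0 members were higher, against 1.16% and 1.2% of the genes tested (2.36% in either direction).

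A further 62 genes of the same pathways, listed by role, placed these results in a wider frame. Of the 57 that passed the filter, 26 were called after TAC in GFP hearts (5 higher and 21 lower), 9 in Cardinal hearts (3 higher and 6 lower) and 30 in the average (6 higher and 24 lower), against 17.4%, 6.48% and 23.1% of all genes tested. In Cardinal TAC against GFP TAC 0 were called, against 0.101%. Taken gene by gene, the 6 further TCA cycle genes did not fall together as the 17 members did. In GFP hearts 1 of these 6 was called lower and 0 higher, against 8.92% and 8.49% of the genes tested. Their values were 3 positive and 3 negative, with a median of -0.005, and in Cardinal hearts 0 were called. Their summed CPM, in which abundant genes weigh most, did fall in GFP hearts, to 82.8% of the sham mean. It was 2065 ± 119 CPM (SD, n = 4) in GFP sham and 1709 ± 92.6 CPM in GFP TAC mice, without overlap. In Cardinal hearts the sum overlapped, at 2031 ± 84.7 CPM after sham surgery and 1918 ± 139 CPM after TAC. Of 16 genes of TCA entry and the malate-aspartate shuttle, 7 were called lower and 1 higher in GFP hearts (median -0.15). Among glycogen genes, Ugp2, which makes UDP-glucose, rose (0.66 and 0.47), Phka2, a phosphorylase kinase subunit, fell (-0.27 and -0.32), and Phkg1, the catalytic subunit, and Epm2a, laforin, fell in GFP hearts (-1.47 and -0.30) and were at -0.80 and -0.22, not called, in Cardinal hearts. Gpd2, the mitochondrial glycerol 3-phosphate dehydrogenase, fell with both vectors (-0.47 and -0.45), as did the monocarboxylate transporter Slc16a7 (-0.96 and -0.85). Ldhd, a lactate dehydrogenase for D-lactate, and Me3, mitochondrial malic enzyme, fell in GFP hearts (-0.63 and -0.35) and were at -0.38 and -0.27, not called, in Cardinal hearts.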

How the data were processed

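The deposited table held whole-number counts for each Ensembl gene in 16 hearts (4 groups of 4 mice), without scaling. The submitters' processing notes name FastQC, HISAT2 2.1.0, edgeR 3.26.1 and GRCm38, and the use of strand and the treatment of reads with several matches are not given in the sources used here. Counts were analyzed in R 4.3.3 with edgeR 4.0.16: expression filter by group, TMM, a quasi-likelihood fit with 1 coefficient per group, contrasts, and Benjamini-Hochberg adjustment over 16857 genes at 0.05. CPM used TMM-scaled library sizes, and levels were divided by exon length in kb (GENCODE M21). The edgeR p-values test a difference between groups against the spread between mice, which the fit estimates with help from all genes and all 4 groups. The members and lists were chosen with earlier results of these data known, and no test was run over a list. Values in every mouse are given for isoform families and, per role, up to 4 members with the smallest p for the average TAC effect. Of the other pathway genes, those among the 10 with the smallest p for the average effect were named, except items not reported here. Near-identical copies were pseudogenes, or genes named as copies, that hold at least 2% of a member's 50-base stretches.

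On simulated data for the GFP comparison (16670 genes tested), 13.0% of genes changed 1.25-fold, 58% at 1.5-fold, 72% at 2-fold and 84% at 3-fold were called, with 6 false calls. Alternatives were DESeq2 1.42.0, other scalings and filters, only the mice compared, a robust spread, no mitochondrially encoded genes, replicate number as a block and each mouse left out; added copies and an offset for GC content were chosen after seeing the data. One of 2 rows for Aldoa, with 5 counts in all, was not used. Figures were drawn with Python 3.11.15 and Matplotlib 3.10.9.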

Additional observations from a re-analysis of the deposited data

Results flagged for a closer look

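Of 196 combinations of a member and a group, 8 (4.08%) had a mouse far from the other 3 by Dixon's test at the 95% level, where chance gives about 1 in 20. Cardinal TAC mouse 1 gave 3 of them, with Idh3b at 371 CPM (others 425 to 426), Idh3g at 242 CPM (others 286 to 291) and Pdp1 at 27.3 CPM (others 15.4 to 17.4). GFP TAC mouse 3 gave 2, with Ogdh at 1464 CPM (others 1569 to 1585) and Eno1 at 62.7 CPM (others 51.5 to 52.7). This mouse also had the lowest TCA cycle sum (8364 CPM) and the highest fibroblast marker sum (1169 CPM) of the GFP TAC group. Single sham mice gave the rest, with Pgk1 at 128 CPM in GFP sham mouse 4 (others 111 to 113), Pgam2 at 248.6 CPM in Cardinal sham mouse 3 (others 239) and Dlst at 469.7 CPM in Cardinal sham mouse 4 (others 455 to 457). Without GFP sham mouse 4, the highest of its group, Pgk1 was called after TAC with either vector. In GFP hearts a larger rise of Pgk1 follows from that choice. The cause of these values was not tested.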

How the results depend on the processing

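The number of members called after TAC in GFP hearts was 30 and lay between 27 and 30 with a mouse left out, that of TCA cycle genes between 15 and 17 and that of glycolytic enzymes between 6 and 8. The average effect gave 30 to 33 members, 15 to 16 TCA cycle genes and 8 to 9 glycolytic enzymes, and sham hearts 0 to 0. Cardinal hearts were less stable. Their 8 members became 14 by DESeq2, 5 with no filter on low counts, 4 with only the mice compared, 5 with an offset for GC content and 2 to 9 with a mouse left out (2 without Cardinal sham mouse 2 or Cardinal TAC mouse 5, 3 without Cardinal sham mouse 4, and 5 without Cardinal sham mouse 1 or 3). Their 2 TCA cycle genes called lower became 4 by DESeq2 and by upper-quartile scaling, 1 with only the mice compared and 1 to 3 with a mouse left out (1 without Cardinal sham mouse 2 or 4 or Cardinal TAC mouse 5). Their 3 glycolytic enzymes called became 5 by DESeq2, 1 with no filter and 1 to 4 with a mouse left out (1 without any 1 of the Cardinal sham mice or Cardinal TAC mouse 5 or 6). Cardinal TAC against GFP TAC went from 0 members to 15 by DESeq2, 1 with upper-quartile scaling, 1 with the GC offset and 0 to 17 with a mouse left out (17 without Cardinal TAC mouse 1), and the difference in response from 0 to 10 by DESeq2 and 0 to 6 with a mouse left out (6 without Cardinal TAC mouse 1). The cause was not tested. The difference of medians between glycolysis and the TCA cycle kept its sign throughout, with 0.22 to 0.27 for the average effect with a mouse left out. No member's called value changed sign under any alternative.

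Replicate numbers are shared between groups, and nothing in the labels ties a number to a batch. The deviations of same-numbered mice correlated at -0.04 to 0.211 over 16 pairs. The 6 pairs of mice numbered 1 were all positive (0.067 to 0.211, 4 above 0.1), the other 10 pairs reached 0.0897 at most, and 3 of 16 mice correlated best with their own number, so a pairing was not shown. With the replicate block, 28 members were called after TAC in GFP hearts, 15 of them TCA cycle genes and 7 glycolytic enzymes. In Cardinal hearts 0 members, and so 0 TCA cycle genes and 0 glycolytic enzymes, were called with the block, where the 8 members called without it had adjusted p of 0.0977 to 0.164. However, some TAC mice had a number that no other mouse carried, more of them in the Cardinal than in the GFP group. The block fitted such mice exactly, so they added nothing to the comparison with sham. The block therefore cannot decide whether the Cardinal calls depend on pairing, and no conclusion is drawn from their loss. At the smallest simulated fold, 13.0% of changed genes were called in the GFP comparison. Those genes were drawn at random from genes of all levels, so this share is not the power for these members. Members not called may still have changed. The counts do not show flux or protein, and reads shared by Gapdh, Pgk1, Pgam1 or Eno1 and their copies could not be assigned.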
